A study of Saccharomyces cerevisiae with 12 samples.

Results

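The strain difference examined here was that between cho2 cells and wild-type (WT) cells growing logarithmically in a rich lactate medium, before any change of medium. The cho2 strain was a MAT a CEN.PK yeast in which the kanamycin cassette KanMX replaced CHO2, and WT was MAT a CEN.PK without that deletion. Both grew in YPL, a rich medium made with yeast extract (1%), peptone (2%) and lactate (2%), the last being the carbon source on both sides of the comparison. The comparison used 4 of the 12 libraries of the study, 2 of cho2 and 2 of WT, and covered every gene that was read at a normalised count of at least 10 in 2 or more of the 12 libraries. That left 6546 of the 6685 listed genes. The remaining 8 libraries came from the same strains sampled 1 h or 3 h later in SL, where lactate was supplied without amino acids, and served here to estimate the spread between replicates and for a side-by-side reading at the end. Each pair is called biological replicates in the design text, yet separate cultures are not mentioned, and the spread behind the p-values may therefore be technical.

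CHO2 encodes the phosphatidylethanolamine methyltransferase, which adds the first methyl group on the way from phosphatidylethanolamine to phosphatidylcholine, and OPI3 encodes the enzyme that adds the remaining methyl groups. The methyl donor for both is S-adenosylmethionine (SAM), and the product left over is S-adenosylhomocysteine, which is hydrolysed to homocysteine. Yeast makes the sulfur of SAM available from sulfate, which is taken up, activated, reduced to sulfide and joined to a carbon chain to give homocysteine, from which methionine and then SAM are made. The genes of this route are activated by Met4 with its partners Cbf1, Met28, Met31 and Met32, and Met4 is held in check by Met30 when sulfur metabolites are plentiful. The study's title sets phospholipid methylation beside histone methylation, another large use of SAM. The YPL comparison asks what losing CHO2 changes while amino acids are still supplied.

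In YPL, cho2 cells had more RNA of 6 genes that turn sulfate into homocysteine, which were 2.6 to 6.93 times as high as in WT. Acid phosphatase genes and a pair of hexose transporter genes were lower, and CHO2 itself was almost unread. These were bulk samples, so fewer cells carrying an RNA and less of it per cell cannot be told apart. By limma with Benjamini-Hochberg adjustment over all 6546 genes, 27 genes passed at an adjusted p under 0.05, which was 0.412% of the genes tested. Of these, 22 were higher in cho2 (0.336%) and 5 were lower (0.0764%), CHO2 included. In all 27 genes both cho2 libraries lay on the same side of both WT libraries, which also held for 46.4% of all genes tested. The same 4 libraries chose these genes, so this separation adds no support to the calls. The median log2 difference over all genes was 0.01. Over the same 6546 genes edgeR with the deposited scaling passed 27 and DESeq2 116. Of the 27 genes, 9 belonged to 6 lists of sulfur genes with 61 members, all of them higher, and 13 other genes were higher.

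**Figure D1:**
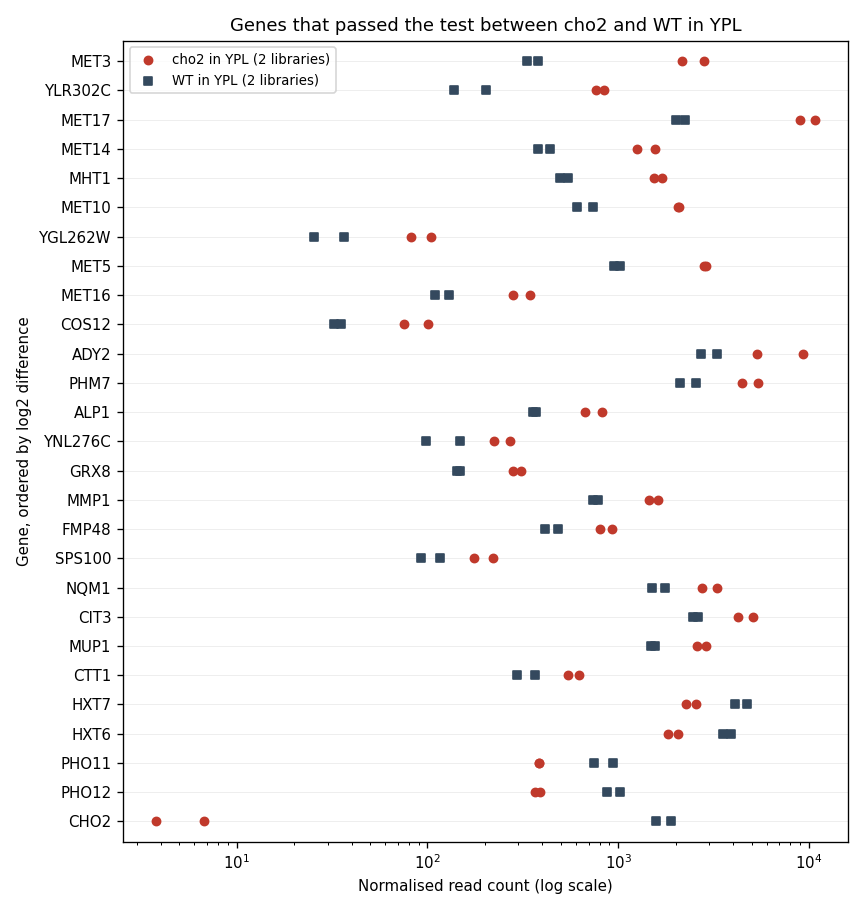
Normalised read count (log scale) of the 27 genes that passed between cho2 and WT in YPL, with 1 point per library (circles cho2, squares WT) and genes ordered by log2 difference. The 2 cho2 points lie to the right of both WT points in the 22 higher genes and to the left in the 5 lower genes, of which CHO2 is farthest away.

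Depth was similar in the libraries compared: the reads recovered from the deposited values came to 10.1 M and 11.3 M (M for mega) in cho2 and 9.48 M and 9.53 M in WT. The log2 values of the 2 cho2 libraries correlated at r = 0.995 across genes and those of the 2 WT libraries at 0.988, and the SD of the difference between replicates was 0.199 in cho2 and 0.311 in WT. The p-values also rest on the spread of the SL libraries. There this SD was 0.181 in cho2 and 0.289 in WT at 1 h, and 0.434 and 0.442 at 3 h. The second WT library at 3 h had the fewest reads, 3.17 M. Genes of the MAT a mating type were read in all 4 libraries, with STE2, for the receptor that a cells carry, at 1291 and 1214 in cho2 and at 1490.5 and 1549 in WT. The alpha pheromone gene MF(ALPHA)1 was at 8.49 and 7.64 in cho2 and at 3.03 and 6.06 in WT. Other alpha markers were read at higher levels: the 4 together summed to 610 and 621 in cho2 and to 551 and 574 in WT. In 3 of these 4 both cho2 libraries lay above both WT libraries, against 24.7% of all genes. None of the 6 markers of a cells, 4 of alpha cells, 6 of haploid cells or 6 of meiosis passed limma between the strains. Since 0.412% of all genes passed, counts of 0 say little about lists this short. DESeq2 passed 1 of the 6 meiosis markers, beside 116 of all 6546 genes.

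CHO2 (YGR157W, chromosome VII) was read at 3.77 and 6.76 in cho2, against 1888 and 1570 in WT, from 4 and 8 reads in cho2 and 1868 and 1554 in WT. The cho2 mean was 0.304% of the WT mean, which matches the labelled deletion. The genes annotated beside CHO2 did not pass. MTR3, for a subunit of the exosome that degrades RNA, was at 393 and 391 in cho2 and at 613 and 563 in WT (log2 -0.58 ± 0.17 SE, limma adjusted p = 0.24). The next gene on that side, NSR1, for a nucleolar protein of ribosome assembly, was at 1768 and 1741 in cho2 and at 2574 and 3320 in WT (log2 -0.74 ± 0.19, limma adjusted p = 0.123). Both MTR3 and NSR1 passed DESeq2 (adjusted p = 0.00554 and 0.000319) but not edgeR (adjusted p = 0.182 and 0.103). On the other side PTI1 was at 342 and 364 in cho2 and at 298 and 380 in WT. CYS4, a sulfur gene on that same side, was at 9466 and 8757 in cho2 and at 5857 and 5941 in WT (log2 0.63 ± 0.20, limma adjusted p = 0.287).

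Among the 10 genes of sulfate uptake and assimilation, 5 rose in cho2 and none fell, against 0.336% of all genes that rose, and the list's median log2 difference was 0.88 against 0.01 over all genes. These 5 encode the enzymes that activate sulfate and reduce it. MET3, for the ATP sulfurylase that activates sulfate, was at 2161 and 2812 in cho2, against 333 and 378 in WT. Each cho2 library was far above both WT libraries, and the log2 difference was 2.79 ± 0.18 (limma adjusted p = 2.9e-10). MET14, for the kinase of the next step, was at 1256 and 1560 in cho2, against 382 and 442 in WT (log2 1.77 ± 0.19, limma adjusted p = 3.07e-06). MET16, for the reductase that releases sulfite, was at 281 and 343 in cho2, against 109 and 129 in WT (log2 1.38 ± 0.21, limma adjusted p = 0.000535).

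Sulfite is reduced to sulfide by sulfite reductase, whose subunits are encoded by MET10 and MET5, and both subunit genes were about equally higher. MET10 was at 2092 and 2048 in cho2 and at 740 and 605 in WT, a log2 difference of 1.63 ± 0.17, and MET5 was at 2810 and 2887 in cho2 and at 1021 and 952 in WT, a log2 difference of 1.53 ± 0.18. The limma adjusted p-values were 1.89e-06 for MET10 and 9.22e-06 for MET5. The other 5 members did not pass. SUL1 and SUL2, for the sulfate permeases, had log2 differences of 0.37 and 0.39 (limma adjusted p = 0.702 and 0.651), and SUL1 was read at 6743 and 7532 in cho2 and at 5427 and 5642 in WT. MET1 and MET8, for the enzymes that make the siroheme of sulfite reductase, had 0.23 and 0.30, and MET22, for the phosphatase that clears the by-product of sulfate reduction, had 0.06. The rise of MET3, MET14, MET16, MET10 and MET5 passed under all 23 alternative settings.

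Of the 9 genes that make homocysteine and methionine, 1 rose, against 0.336% of all genes. MET17, for the enzyme that joins sulfide to O-acetylhomoserine, was at 8926 and 10743 in cho2 and at 2253 and 2003 in WT (log2 2.20 ± 0.19, limma adjusted p = 7.54e-08). MET2, which supplies O-acetylhomoserine, was at 890 and 786 in cho2 and at 421 and 603 in WT but did not pass (log2 0.73 ± 0.18, limma adjusted p = 0.0923). The methionine synthase gene MET6 was at 1329 and 1261 in cho2 and at 908 and 860 in WT (log2 0.55 ± 0.17, limma adjusted p = 0.287). DESeq2 passed both MET2 and MET6, with adjusted p-values of 0.00082 and 0.0106. The other members had log2 differences between -0.43 and 0.05, and the aspartate-side genes HOM3, HOM2 and HOM6 were among them. The median of the list was -0.04.

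Among the 7 genes of SAM synthesis and recycling, 1 rose, against 0.336% of all genes. This was MHT1, for the methyltransferase that recycles S-methylmethionine into methionine, at 1539 and 1702 in cho2 and at 494 and 549 in WT (log2 1.63 ± 0.19, limma adjusted p = 1.06e-05). SAM1 and SAM2, which encode the SAM synthetases, were close between the strains: SAM1 was at 2034 and 2082 in cho2 and at 2029 and 2249 in WT, and SAM2 at 1730 and 1580 in cho2 and at 1760 and 1473 in WT. Their values overlapped, with log2 differences of -0.05 and 0.04. SAH1, for the hydrolase that breaks down S-adenosylhomocysteine, was at 3963 and 3336 in cho2 and at 5677 and 5457 in WT, a log2 difference of -0.61 ± 0.17 that did not pass limma (adjusted p = 0.152) but passed DESeq2 (adjusted p = 0.0212). Both SAH1 values of cho2 lay below both of WT.

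For the uptake of sulfur compounds, 2 of 12 genes rose, against 0.336% of all genes. MMP1, for the S-methylmethionine permease and the neighbour of MHT1 on chromosome XII, was at 1444 and 1614 in cho2 and at 785 and 738 in WT (log2 1.00 ± 0.17, limma adjusted p = 0.00173). MUP1, for the high-affinity methionine permease, was at 2877 and 2593 in cho2 and at 1566 and 1478 in WT (log2 0.84 ± 0.18, limma adjusted p = 0.0257). The call of MMP1 ended without the second cho2 library in YPL (limma adjusted p = 0.118, with 1.3e-07 to 0.118 over the alternatives), and that of MUP1 ended in 7 of the 23 alternatives, TMM scaling and each of the 4 YPL libraries left out among them. None of the 16 genes of transsulfuration and glutathione passed limma. By the unadjusted p, 3 were higher and 2 lower at under 0.05, against 6.97% of all genes in either direction, and 0 passed edgeR and 3 DESeq2 (116 of all 6546 genes passed DESeq2). OPT1, for the glutathione importer, had the lowest p of these, at 232 and 237 in cho2 and at 141 and 130 in WT (log2 0.78 ± 0.20, limma adjusted p = 0.09).

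None of the 7 regulators of sulfur genes passed limma, 2 were higher at an unadjusted p under 0.05 (3.94% of all genes were), and edgeR passed 0 and DESeq2 1 (116 of all 6546 genes passed DESeq2). MET28 came nearest, at 133 and 157 in cho2 and at 81.9 and 82.9 in WT (log2 0.80 ± 0.19, limma adjusted p = 0.0609). YIR017W-A, which ranked next below the 27 genes (limma adjusted p = 0.0526), was read at 0.988 to 1.01 times the reads of MET28 in the 12 libraries, so the pair cannot be told apart. MET4 was at 1385 and 1468 in cho2 and at 1085 and 1542 in WT, values that overlapped, with a log2 difference of 0.14 and a 95% interval of -0.28 to 0.55. MET30 likewise overlapped between the strains, with a log2 difference of 0.15.

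**Figure D2:**
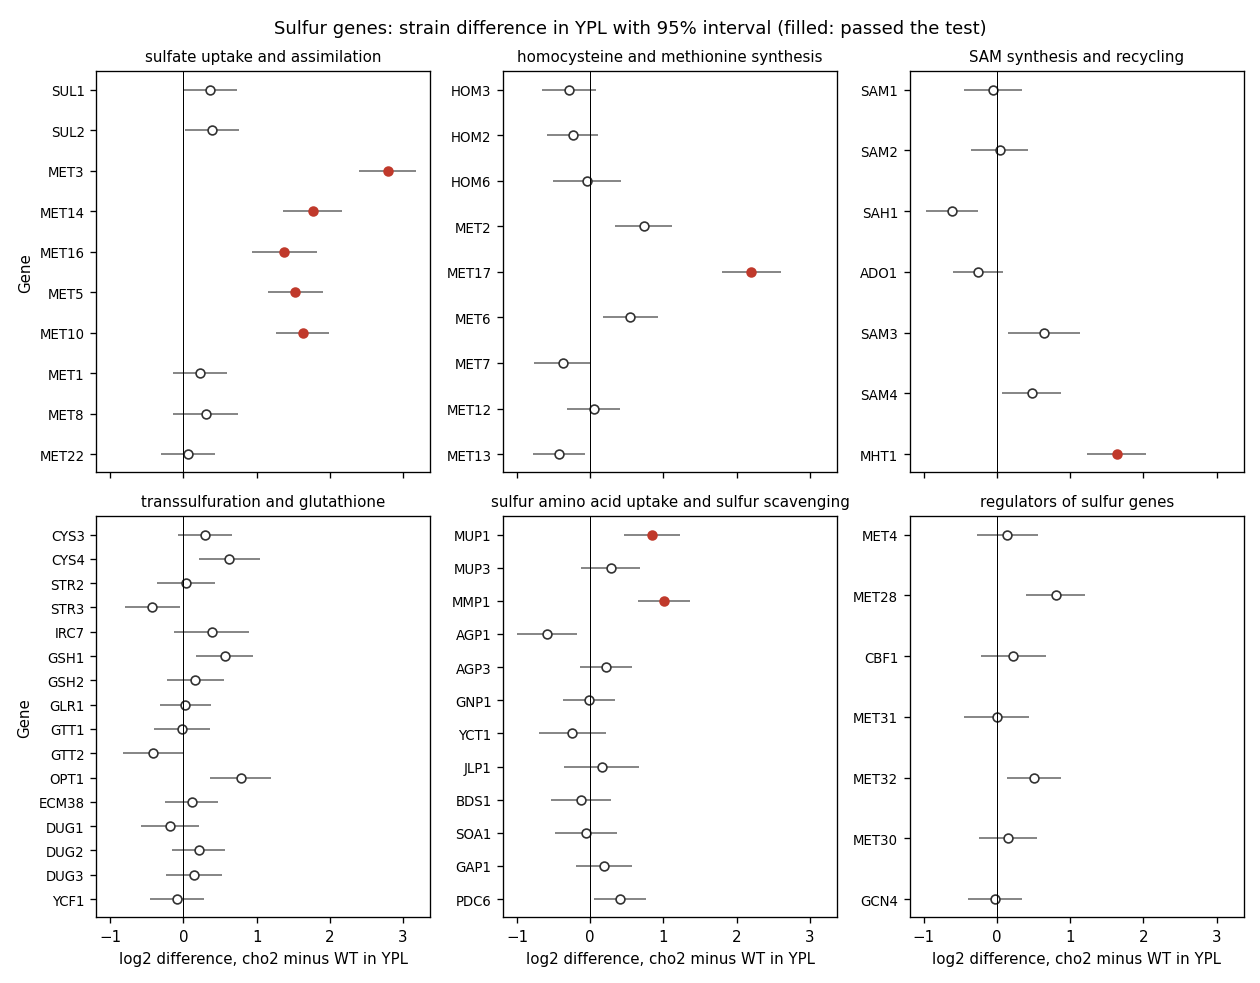
Log2 difference, cho2 minus WT in YPL, of the 61 genes in 6 sulfur lists, with the 95% interval of the limma fit as a line and filled points for genes that passed. The 9 filled points lie between 0.84 and 2.79, and 5 of them are in the panel of sulfate uptake and assimilation.

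Some called genes share reads or position with the sulfur genes. YLR302C, whose frame overlaps MET17, was at 768 and 842 in cho2 and at 137 and 202 in WT, and its reads were 0.061 to 0.101 of those of MET17 in YPL. YNL276C, which the reference table does not hold, bears the systematic number next to that of MET2 and had 0.233 to 0.303 of its reads in YPL; it was at 270 and 222 in cho2 and at 97.9 and 149 in WT. The kit marked strand, per the labels' protocols, but whether the counting used it is not given in the sources used here, so these values may hold reads of MET17 and MET2. GRX8, for a glutaredoxin, shares no such overlap. It rose, at 281 and 307 in cho2 and at 148 and 144 in WT (log2 1.01 ± 0.20, limma adjusted p = 0.0151).

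ADY2, for an acetate transporter, was at 5353 and 9280 in cho2 and at 3307 and 2712 in WT (log2 1.23 ± 0.20, limma adjusted p = 0.00173), and its 2 cho2 libraries lay far apart. The call of ADY2 ended without the second cho2 library (limma adjusted p = 0.26, with 6.43e-06 to 0.26 over the alternatives), and also under TMM scaling and with no filter on low values. ADY2 was the 1 gene that rose of 11 in lactate use and gluconeogenesis, against 0.336% of all genes. JEN1, for the lactate permease, was at 45816 and 51416 in cho2 and at 44539 and 39606 in WT (log2 0.21, limma adjusted p = 0.949). CIT3, for a mitochondrial citrate and methylcitrate synthase, was the 1 gene that rose of 22 in the TCA cycle list (0.336% of all genes rose), at 4264 and 5096 in cho2 and at 2636 and 2481 in WT (log2 0.87 ± 0.18, limma adjusted p = 0.0257). PDH1, for the dehydratase that acts on methylcitrate, was at 11809 and 12639 in cho2 and at 7410 and 8072 in WT but did not pass limma (log2 0.66 ± 0.17, adjusted p = 0.123; DESeq2 adjusted p = 2.68e-07).

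ALP1, for an arginine permease, was at 668 and 826 in cho2 and at 357 and 371 in WT (log2 1.03 ± 0.20, limma adjusted p = 0.0138). NQM1, for a transaldolase, was at 2760 and 3280 in cho2 and at 1757 and 1496 in WT (log2 0.89 ± 0.16, limma adjusted p = 0.00555). FMP48, for a kinase found with mitochondria, was at 803 and 928 in cho2 and at 411 and 483 in WT (log2 0.95 ± 0.17, limma adjusted p = 0.00457). In each of these 3 genes the lower cho2 value was well above the higher WT value. PHM7, whose function is not established, rose by 1.09 ± 0.19 on the log2 scale, at 4483 and 5413 in cho2 and at 2550 and 2105 in WT (limma adjusted p = 0.00292). SPS100, for a protein of the spore wall, was at 175 and 220 in cho2 and at 116 and 93 in WT and overlaps the transcript SUT169.

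At low level, 2 neighbouring genes near the left end of chromosome VII were higher in cho2. YGL262W was at 82 and 105 in cho2 and at 25.3 and 36.4 in WT (log2 1.58 ± 0.28, limma adjusted p = 0.00457). COS12, of a family found near chromosome ends, was at 101 and 75.2 in cho2 and at 35.4 and 32.3 in WT (log2 1.34 ± 0.30, limma adjusted p = 0.046). Of the genes in the list of such families, COS12 was the 1 that passed of 31, against 0.412% of all genes. The COS12 call ended under 11 of the 23 alternatives, edgeR included. Over whole chromosomes the median log2 difference lay between -0.01 and 0.04.

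Of the 4 genes other than CHO2 that fell, 2 encode secreted acid phosphatases and 2 high-affinity hexose transporters. PHO12 was at 388 and 368 in cho2 and at 869 and 1017 in WT (log2 -1.31 ± 0.19, limma adjusted p = 0.000251), and PHO11 was at 385 and 384 in cho2 and at 745 and 944 in WT (log2 -1.12 ± 0.20, limma adjusted p = 0.00333). These are near-identical copies, so reads may be split between them and the values of each are uncertain. PHO12 passed under all 23 alternatives, while the call of PHO11 ended in 3 of them, each with 1 YPL library left out. PHO5, for the main acid phosphatase made when phosphate is scarce, was at 75.4 and 66.7 in cho2 and at 119 and 173 in WT, and PHO3, for an acid phosphatase made regardless of phosphate, was at 165 and 179 in cho2 and at 288 and 294 in WT. Neither passed limma (log2 -1.01 and -0.76, adjusted p = 0.0713 and 0.137), and both passed DESeq2 (adjusted p = 0.00984 and 0.00116).

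Across the 25 genes of phosphate uptake, storage and signalling, 2 fell (the near-identical PHO11 and PHO12) and none rose by limma, against 0.0764% of all genes that fell. DESeq2 passed 116 of all 6546 genes and 7 of these 25. The median log2 difference was -0.12, and in 15 of the 25 both cho2 libraries lay below both WT libraries, against 21.6% of all genes. PHO84, for the high-affinity phosphate transporter, was at 8153 and 7004 in cho2 and at 10854 and 10824 in WT (log2 -0.52 ± 0.19, limma adjusted p = 0.454), and SPL2, which restrains low-affinity phosphate uptake, had -0.69 ± 0.22 (limma adjusted p = 0.295). PHO89, for the sodium-coupled phosphate transporter, was at 20219 and 24097 in cho2 and at 18117 and 19518 in WT, and PHO87, for a low-affinity transporter, had 0.49 ± 0.18 (limma adjusted p = 0.472). The list was therefore not of a single sign. GIT1, for the permease of glycerophosphoinositol and glycerophosphocholine, was at 1389 and 1232 in cho2 and at 2283 and 2429 in WT (log2 -0.85 ± 0.22, limma adjusted p = 0.118), and it passed edgeR (adjusted p = 0.0181) and DESeq2 (adjusted p = 1.72e-05).

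HXT6 was at 2063 and 1822 in cho2 and at 3555 and 3891 in WT (log2 -0.94 ± 0.20, limma adjusted p = 0.0257). HXT7, the adjacent near-identical copy, was at 2558 and 2260 in cho2 and at 4096 and 4709 in WT (log2 -0.87 ± 0.19, limma adjusted p = 0.0322). In each gene the cho2 values were below both WT values, and both calls ended under 9 of the 23 alternatives, TMM scaling and each of the 4 YPL libraries left out among them. Reads may be split between these near-identical copies, so the values of each are uncertain. They were the 2 that fell of 10 hexose transporter and sensor genes, against 0.0764% of all genes. The other 8 did not pass, and HXT3 had a log2 difference of -0.49 (limma adjusted p = 0.375).

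Limma calls were absent among the phospholipid genes around CHO2. Of the 11 other genes of synthesis from CDP-diacylglycerol none passed limma, and none had an unadjusted p under 0.05 or passed edgeR or DESeq2. Of all genes, 0.412% passed limma and 6.97% had an unadjusted p under 0.05, so these counts say little about so short a list. With CHO2 counted, both cho2 libraries lay below both WT libraries in 6 of the 12 genes and above in 4. Over all genes these shares were 21.6% and 24.7%. OPI3, for the methyltransferase that follows Cho2, was at 1163 and 1192 in cho2 and at 1299 and 1391 in WT, with a log2 difference of -0.19 and a 95% interval of -0.52 to 0.14. CHO1, for phosphatidylserine synthase, was at 2810 and 2706 in cho2 and at 2677 and 2460 in WT, and PSD1, for the mitochondrial phosphatidylserine decarboxylase, was at 896 and 951 in cho2 and at 855 and 1000 in WT. INO1, for inositol-phosphate synthase, was at 245 and 262 in cho2 and at 294 and 323 in WT (log2 -0.28, 95% interval -0.61 to 0.04). The intervals of OPI3, CHO1, PSD1 and INO1 all include 0 and stay within 0.61 of it, which bounds the size of a difference in these genes but does not show that there was none.

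Among the 13 genes of the Kennedy pathway and of choline, ethanolamine and inositol uptake, none passed limma, 2 were lower at an unadjusted p under 0.05 (GIT1 and EPT1), against 3.02% of all genes, and GIT1 was the 1 gene passed by edgeR and by DESeq2. In 8 of the 13 both cho2 libraries lay below both WT libraries and in 3 above, against 21.6% and 24.7% of all genes. The list's median log2 difference was -0.17. PCT1, for the enzyme that paces phosphatidylcholine synthesis from choline, was at 899 and 896 in cho2 and at 730 and 841 in WT (log2 0.20, 95% interval -0.16 to 0.55). HNM1, for the choline transporter, was at 1005 and 950 in cho2 and at 1330 and 1109 in WT (log2 -0.31, 95% interval -0.68 to 0.06). None of the 9 regulators of phospholipid genes passed limma, edgeR or DESeq2, or had an unadjusted p under 0.05; OPI1, for the repressor, was at 877 and 955 in cho2 and at 726 and 883 in WT. The 19 genes of protein folding and stress in the endoplasmic reticulum had log2 differences between -0.23 and 0.31, inside the central 95% of all genes (-0.50 to 0.51). None of them had an unadjusted p under 0.05, against 6.97% of all genes, or passed edgeR or DESeq2.

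Genes of the other SAM-using processes named by the study had no call either. None of the 14 genes of histone lysine methylation and demethylation passed limma, edgeR or DESeq2 or had an unadjusted p under 0.05. Of all genes, 0.412% passed limma and 6.97% had an unadjusted p under 0.05, so counts of 0 say little about so short a list. The log2 differences of these 14 lay between -0.31 and 0.30, inside the central 95% of all genes (-0.50 to 0.51). SET1, for the histone H3 lysine 4 methyltransferase, was at 768 and 716 in cho2 and at 648 and 741 in WT, and SET2, for the lysine 36 enzyme, was at 473 and 382 in cho2 and at 421 and 488 in WT. Both genes overlapped between the strains. The 14 genes of PP2A-family phosphatases and their methylation gave the same counts of 0, with log2 differences from -0.13 to 0.26; PPM1, for the methyltransferase of the PP2A catalytic subunit, was at 789 and 804 in cho2 and at 702 and 627 in WT.

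**Figure D3:**
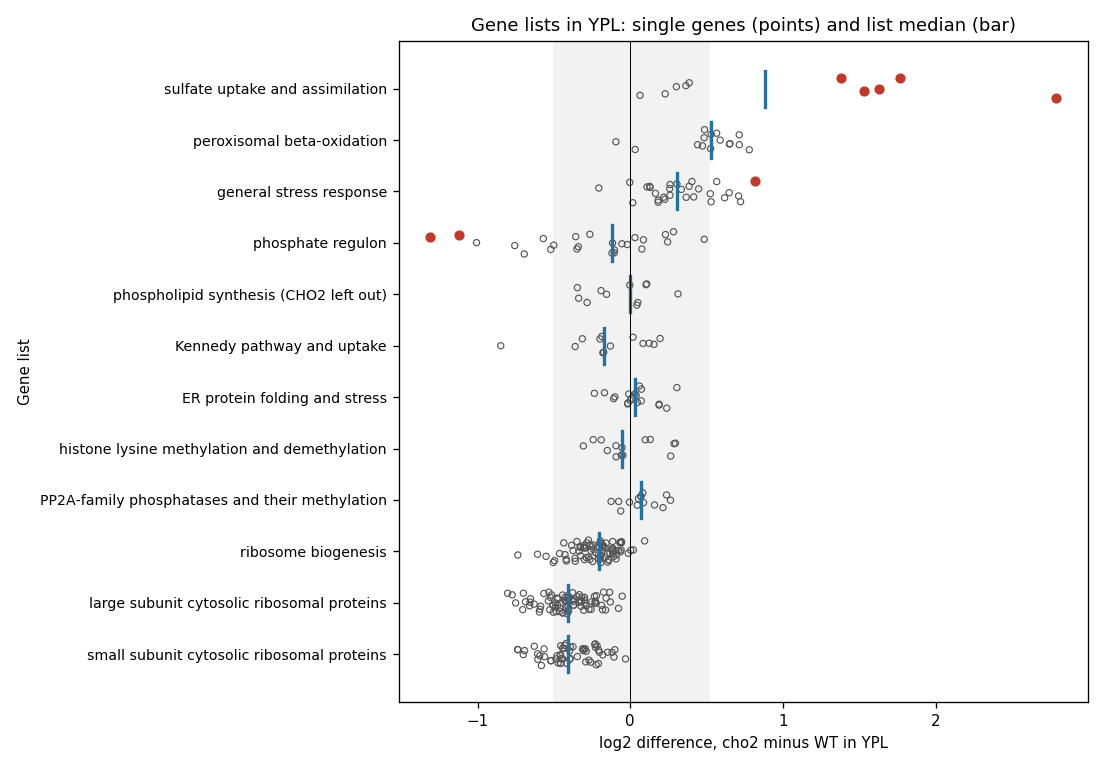
Log2 difference, cho2 minus WT in YPL, of each gene in 12 lists (points, filled where the gene passed) with the list median as a bar, CHO2 left out. The shaded band holds the central 95% of all genes tested, from -0.50 to 0.51, and the points of beta-oxidation lie mostly at its upper edge and those of the ribosomal proteins mostly below 0.

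Of all 6546 genes, 27 passed edgeR and 116 DESeq2. Peroxisomal beta-oxidation, which shortens fatty acids to acetyl-CoA, had 0 of 15 genes pass limma and 0 pass edgeR, while 12 passed DESeq2. Its median log2 difference was 0.53, and in 13 of 15 genes both cho2 libraries lay above both WT libraries, against 24.7% of all genes. CTA1, for the peroxisomal catalase, was at 9305 and 12371 in cho2 and at 5796 and 6735 in WT (log2 0.78 ± 0.18, limma adjusted p = 0.063). FOX2, for the multifunctional enzyme of the cycle, was at 8086 and 10079 in cho2 and at 6106 and 5420 in WT (log2 0.65 ± 0.17, limma adjusted p = 0.137). PXA2, for a subunit of the fatty acyl-CoA importer, was at 1596 and 1907 in cho2 and at 1155 and 978 in WT (log2 0.71 ± 0.17, limma adjusted p = 0.0697). Taken library by library and relative to the median of all genes, the list stood 0.35 and 0.66 above the first WT library and 0.44 and 0.74 above the second, so the first cho2 library was nearer to WT than the second in both cases.

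Of the 29 genes of the general stress response, 1 rose (0.336% of all genes did), CTT1 for the cytosolic catalase, at 543 and 625 in cho2 and at 368 and 296 in WT (log2 0.82 ± 0.17, limma adjusted p = 0.0257). CTT1 did not pass edgeR (adjusted p = 0.0532, with 3.77e-05 to 0.855 over the alternatives). In all, 11 genes of the list were higher and none lower at an unadjusted p under 0.05, against 3.94% of all genes higher. DESeq2 passed 4 of the list, against 116 of all 6546 genes. SPI1, for a cell wall protein, was at 677 and 796 in cho2 and at 400 and 493 in WT (log2 0.72 ± 0.17, limma adjusted p = 0.063), and HSP42, for a small heat shock protein, was at 5124 and 5840 in cho2 and at 3105 and 3922 in WT (log2 0.65 ± 0.19, limma adjusted p = 0.24). The second WT library was below the first across this list, with a median difference of -0.24 between them, so part of the distance to cho2 depends on which WT library is read.

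Cytosolic ribosomal protein genes lay on the other side. None of the 137 passed limma or edgeR and 1 passed DESeq2 (116 of all 6546 genes did), but all 137 had log2 differences below 0, with a median of -0.41, and 63 were lower at an unadjusted p under 0.05, against 3.02% of all genes. Both cho2 libraries were below both WT libraries in 126 genes, against 21.6% of all genes. RPS12, for a small subunit protein, was at 4563 and 3772 in cho2 and at 10016 and 4764 in WT (log2 -0.74 ± 0.25, limma adjusted p = 0.424), and RPL42A, for a large subunit protein, was at 1862 and 1595 in cho2 and at 4167 and 2170 in WT (log2 -0.80 ± 0.25, limma adjusted p = 0.295). In both genes the first WT library was far above the other 3. Relative to all genes, the list stood 0.53 and 0.70 below the first WT library but 0.14 and 0.31 below the second, and the WT libraries themselves differed by a median of 0.33. Many of these genes have near-identical copies, so the values of single genes are uncertain.

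The 80 ribosome biogenesis genes had a median of -0.20, with none past limma or edgeR, 10 lower at an unadjusted p under 0.05 (3.02% of all genes were) and 3 past DESeq2 (116 of all 6546 genes were), NSR1 among them. In this list it was the second WT library that lay higher, with a median difference of 0.22 between the WT libraries, the opposite of the ribosomal proteins. The part of the spread between the WT libraries in the stress, ribosomal protein and biogenesis differences was not tested.

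**Figure D4:**
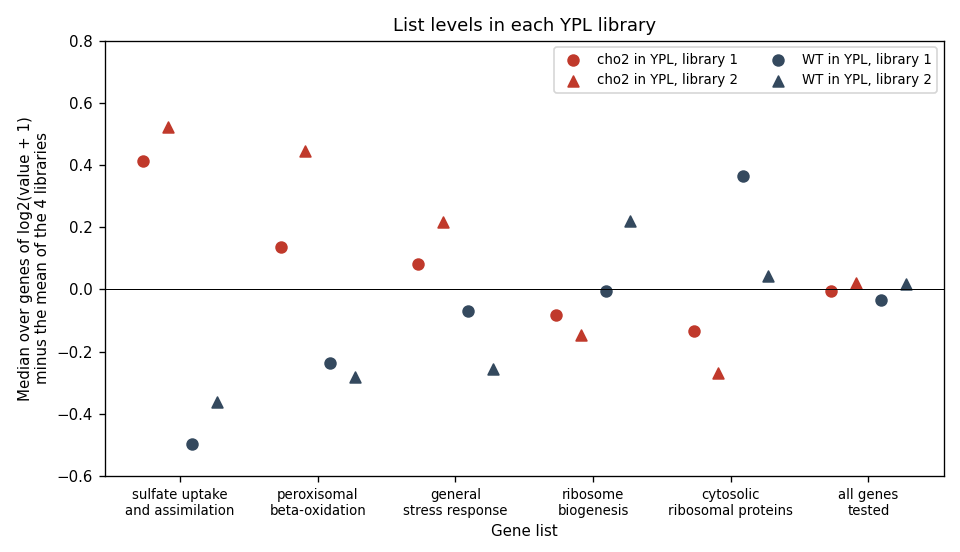
Median over the genes of each list of log2(value + 1) minus the mean of the 4 YPL libraries, for cho2 libraries (red) and WT libraries (dark), with circles for library 1 and triangles for library 2. The sulfate list separates the strains by more than its replicates differ, while for ribosomal proteins the 2 WT libraries, at 0.36 and 0.04, are farther apart than the second is from either cho2 library, at -0.13 and -0.27.

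Of the 60 gene lists with a listed member, 48 had no gene that passed in YPL. Since 0.412% of all genes passed, short lists mostly hold no call, and this count says little about them. Ergosterol synthesis had log2 differences from -0.44 to 0.25 over 25 genes and neutral lipid storage from -0.41 to 0.25 over 14. Fatty acid synthesis had 2 of 12 genes lower at an unadjusted p under 0.05 (ACC1 and FAS2, with log2 differences of -0.44 and -0.43), against 3.02% of all genes, and none past edgeR or DESeq2. Its median was -0.22. Both cho2 libraries lay below both WT libraries in 7 of the 12 and above in 1, against 21.6% and 24.7% of all genes. Respiratory chain and ATP synthase genes had a median of -0.08 over 36 genes, mitochondrial ribosomal proteins -0.08 over 67, and glycolysis and fermentation -0.12 over 23. IME1, for the activator of meiosis, was at 201 and 231 in cho2 and at 87.9 and 114 in WT (log2 1.10 ± 0.26, limma adjusted p = 0.063). The other 5 meiosis markers did not pass limma either. Of the 6 markers, 1 was higher at an unadjusted limma p under 0.05, against 3.94% of all genes. DESeq2 passed 1 of the 6, beside 116 of all 6546 genes. Genes of the mitochondrial genome were not analysed here. Of the 27 called genes 9 were in none of the lists.

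The same genes were read in the SL libraries, whose values are not in the YPL difference itself but entered the filter on low values and the estimate of spread behind its p-values. Of the 22 genes higher in cho2 in YPL, 11 were lower in cho2 than in WT at 1 h in SL, 5 were higher and 6 did not pass, beside 9.23% of all genes that passed at that time (3.64% higher and 5.59% lower). At 3 h, 9 of the 22 were lower, 3 were higher and 10 did not pass, beside 3.44% of all genes (0.611% higher and 2.83% lower). The 9 called sulfur genes were all lower in cho2 at 1 h, and the list of sulfate uptake and assimilation had 10 of 10 genes lower at 1 h and 8 of 10 at 3 h. MET3 was at 24668 and 24245 in cho2 at 1 h, against 61704 and 63809 in WT (log2 -1.36, limma adjusted p = 1.46e-05), and MUP1 was at 1135 and 1236 in cho2 against 11839 and 9007 in WT (log2 -3.12, limma adjusted p = 1.51e-11).

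MET3 in cho2 in YPL stood at 3.96% of its mean in WT at 1 h in SL, against 0.567% for WT in YPL. MET17 stood at 9.15% of that mean in cho2 and 1.98% in WT, and MET10 at 4% in cho2 and 1.3% in WT. MHT1 stood nearer to that level, at 66.5% in cho2 and 21.4% in WT. Genes outside sulfur metabolism followed other courses: ADY2 and ALP1 were also higher in cho2 at 1 h (log2 2.06 and 1.49, limma adjusted p = 1.56e-07 and 2.23e-05), SPS100 at 1 h and 3 h (log2 0.74 and 1.34), and COS12 at 3 h (log2 1.49, limma adjusted p = 0.00686).

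HXT6 and HXT7, lower in cho2 in YPL, were higher in cho2 at 1 h (log2 1.21 and 1.22) and did not pass at 3 h. HXT7 was at 6068 and 6891 in cho2 at 1 h and at 3263 and 2361 in WT. PHO12 and PHO11 were lower in cho2 at 1 h as well (log2 -0.60 and -0.63, limma adjusted p = 0.0434 and 0.0436). Ribosomal protein genes, all below 0 in YPL, had 56 of 137 higher and none lower in cho2 at 1 h, beside 3.64% of all genes higher and 5.59% lower. INO1, which did not pass in YPL, was at 6338 and 6103 in cho2 at 1 h and at 1236 and 1289 in WT (log2 2.30, limma adjusted p = 3.62e-10).

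**Figure D5:**
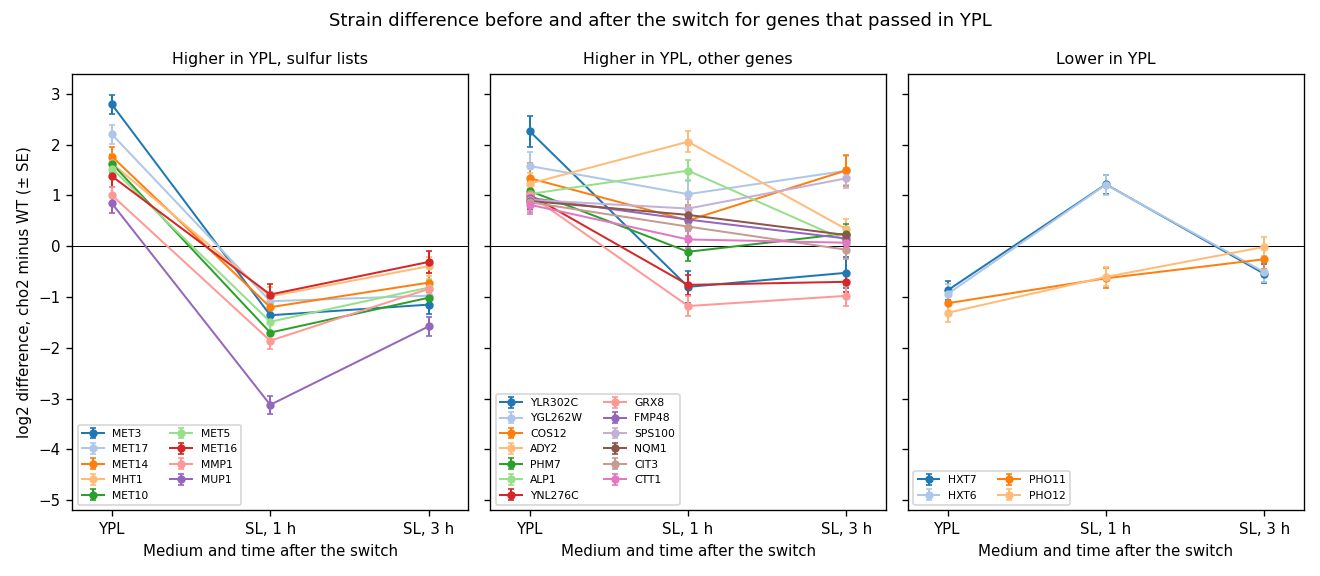
Log2 difference, cho2 minus WT (± SE), in YPL and 1 h and 3 h after the switch to SL, for the 26 genes other than CHO2 that passed in YPL, in 3 panels. The 9 sulfur genes lie above 0 in YPL and below 0 at 1 h, and HXT6 and HXT7 lie below 0 in YPL and above 0 at 1 h.

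The difference between the strain differences was tested too (limma interaction). At 1 h it passed for 15 of the 27 genes, beside 3.61% of all genes (1.62% above 0 and 1.99% below), and at 3 h for 13, beside 0.703% of all genes (0.0764% above 0 and 0.626% below). These tests share the YPL libraries that chose the genes.

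The number of calls rested on few libraries. Without the second cho2 library in YPL, 11 genes passed, all of them among the 27, and without the second WT library 34 passed, 16 of them among the 27. The calls of ALP1, GRX8, CIT3, MUP1, HXT6, HXT7 and COS12 ended when any of the 4 YPL libraries was left out. Those of PHO11, SPS100 and CTT1 ended without either cho2 library or the second WT library, that of NQM1 without the second cho2 or second WT library, and that of YNL276C without the first cho2 or first WT library. YGL262W and FMP48 were lost without the second cho2 or first WT library, and MMP1, PHM7 and ADY2 without the second cho2 library. The 10 genes that passed under all 23 alternatives were CHO2, MET3, MET17, MET10, MET14, MET5, MHT1, MET16, YLR302C and PHO12. For MTR3, NSR1, MET2, MET6, SAH1, PDH1, PHO5, PHO3 and GIT1, DESeq2 gave the lowest adjusted p of the alternatives, and the highest lay between 0.999928 and 1.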

How the data were processed

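The labels' protocols describe poly-A RNA made into stranded TruSeq libraries and read on a HiSeq 2500. The authors' deposited values have the unit signal: per the submitters' processing notes Bowtie and DESeq were used with build sacCer2, and the sources used here do not give the versions, the counter, the annotation or whether strand was used. In each of the 12 columns 100% of the values were whole multiples of a step (tolerance 0.01 reads), as when gene counts are divided by a size factor. The reads recovered this way came to between 3.17 M and 12.5 M per library. Names, neighbours, overlaps and copies (95% identity over 50% of the length or more, blastn 2.17.0) came from release R64, which held 6006 of the 6685 genes. No sequence is printed, since R64 is not the build of the files.

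Tests used limma 3.58.1 (R 4.3.3) with a trend on log2(value + 1), a scale that understates changes of low genes. All 12 libraries entered a single fit with a mean for each group, which left 6 residual degrees of freedom. A gene needed a value of 10 in 2 libraries, and p-values were adjusted over all genes tested. The second highest value was 10.1 for the gene just inside this filter and 9.98 for the gene just outside. Alternatives included edgeR 4.0.16 and DESeq2 1.42.0 on the recovered read counts, other scalings, other filters, a replicate block and each library left out. The code was tested on simulated data. Named genes were all that passed, the 3 next in rank, CHO2 and the 2 genes on each side, all members of the sulfur, phospholipid, histone methylation, PP2A and phosphate lists, and up to 4 members with the smallest p of each other list described. Members, lists and tests were chosen with earlier results of these data known.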

Additional observations from a re-analysis of the deposited data

Results flagged for a closer look

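For genes that passed in YPL, the strain difference (log2, cho2 minus WT) was also compared between media, as that in SL minus that in YPL (limma interaction, adjusted over all 6546 genes). It passed for 15 genes at 1 h and 13 at 3 h, 12 of them at both, beside 3.61% of all genes at 1 h and 0.703% at 3 h. These interactions contain the YPL libraries that chose the genes, so they are not independent of that choice.

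Among sulfur genes the interaction was below 0 throughout. At 1 h it was -4.15 for MET3, -3.97 for MUP1, -3.33 for MET10, -3.29 for MET17, -3.02 for MET5, -2.97 for MET14, -2.86 for MMP1, -2.62 for MHT1 and -2.33 for MET16. At 3 h it was -3.94 for MET3, -3.18 for MET17, -2.64 for MET10, -2.48 for MET14, -2.42 for MUP1, -2.34 for MET5, -2.03 for MHT1, -1.84 for MMP1 and -1.69 for MET16. YLR302C, which overlaps MET17 (-3.06 at 1 h, -2.79 at 3 h), YNL276C (-1.77 at 1 h, -1.71 at 3 h) and GRX8 (-2.19 at 1 h, -1.99 at 3 h) had the same sign.

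Outside these, PHM7 had -1.20 at 1 h. The 3 values above 0 were those of HXT6 (2.15) and HXT7 (2.09) at 1 h and PHO12 (1.30) at 3 h, genes that were lower in cho2 in YPL.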

How the results depend on the processing

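Against 27 genes (22 higher, 5 lower), 16 passed with no filter (13 higher, 3 lower), 41 with quantile normalization (10 lower) and 116 in DESeq2 (80 higher, 36 lower); 9 were lower in a fit of the YPL libraries alone and 10 in edgeR with TMM scaling. Without both second 3 h libraries, an alternative added after seeing the data, 46 passed (34 higher, 12 lower). With each library left out in turn the count ranged from 11 to 37 (9 to 30 higher, 2 to 13 lower). The 1 h interaction passed for 236 genes, against 148 with no filter, 424 with TMM, 482 with quantile normalization, 581 in a fit of its own libraries, 452 in edgeR with TMM, 651 in DESeq2, 582 without both second 3 h libraries and 97 to 419 with each library left out. The 3 h interaction passed for 46 genes, against 26 with no filter, 151 in DESeq2 and 30 to 164 with each library left out.

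No called direction was reversed. TMM moved the median of all genes by -0.03. Same-numbered YPL libraries of the 2 strains did not deviate together (r = 0.065). Over the 15 pairs of groups r ranged from -0.196 to 0.542, with 0.542 for WT in YPL and WT at 1 h, 0.419 for the strains at 3 h and 0.213 for cho2 in YPL and WT at 1 h. Since not every pair was over 0.1, the numbers are not taken as pairs; with the replicate block 36 genes passed, all 27 among them, and the interactions passed for 315 genes at 1 h and 64 at 3 h. Over named genes, 7857 comparisons with an alternative stayed on the same side of the threshold, 109 passed only under the alternative and 80 passed only in the fit reported. Each group had 2 libraries, and the lowest call among the genes that rose had a log2 difference of 0.82. The causes of these differences in counts were not tested.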
